A study of Mus musculus with 6 samples.

Results

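The cytosolic ribosomal protein genes encode the protein part of the ribosome that translates nuclear messages. Members were taken from the deposited gene tables by symbol: names of the form Rpl or Rps with a number, plus Rpsa, Rplp0, Rplp1 and Rplp2. Of 89 matching symbols, 6 are pseudogenes in the GENCODE annotation (Rps4l, Rps12l1, Rpl32l, Rpl6l, Rps3a2 and Rps3a3) and were left out. Rpl3 and its muscle copy Rpl3l were also left out of the set, and S6 kinase genes were never part of it. This left 81 of the 49315 genes in the tables, of which 32 belong to the small (40S) subunit, 46 to the large (60S) subunit and 3 to the P stalk. The members lie on 19 chromosomes, and 79 passed the filter on low counts.

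RNA sequencing of mouse gastrocnemius, the large calf muscle, gave 6 libraries at 3 months of age, all with the strain label mixed C57BL/6 129. There were 3 WT libraries and 3 from a muscle-specific knockout of Hnrnpu (mKO), which encodes a nuclear RNA-binding protein. The sources used here do not give the Cre driver, the deleted exons or whether WT mice carried a floxed allele. Replicates carry numbers but no animal, so p-values reflect only a spread among these libraries that may be technical.

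A ribosome holds each of its proteins in a fixed ratio, and cells usually make them in step with ribosomal RNA. Messages of these proteins typically start with a pyrimidine-rich tract (a TOP motif), through which mTORC1 and LARP1 control their translation. Muscle growth depends on ribosome production, since the ribosome content sets the capacity for protein synthesis. In bulk RNA, fewer cells of a type and less RNA per cell cannot be told apart.

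Total counts were 32108684 to 42344238 per library. Hnrnpu, the targeted gene, was at 233, 235 and 247 CPM (counts scaled to a common library size) in WT and 209, 210 and 205 in mKO. The mKO values were all lower, with a log2 fold change of -0.20 that was not called (edgeR adjusted p = 0.147). With library totals the direction turned, to 0.27 (edgeR adjusted p = 0.0405), so Hnrnpu counts do not settle the labels. Counts summed over all exons cannot check the labels if the deletion spares most of them. The library sizes behind CPM were scaled with TMM, a method that centres the bulk of genes. Its factors were 0.845 to 0.859 in WT and 1.15 to 1.20 in mKO, so TMM and plain library totals differ by a median of 0.46 on the log2 scale. A direction stated below with TMM is therefore relative to the bulk of genes. Muscle fibre markers identified the tissue, at a summed 260065 to 276921 CPM in WT and 161861 to 195275 in mKO.

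Sequence around the gene start is shown for members that the results below turn on, because the pyrimidine tract is the feature this gene family is known for. A promoter window from RefSeq (GRCm38.p6) was matched for 62 members. In the 100 bases centred on the annotated start, 43 of the 62 (69.4%) had an unbroken pyrimidine run of at least 10 bases on the gene strand, against 20.5% of 17430 other protein-coding genes. Each sequence below reads 5′ to 3′ on the gene strand, with the run in capitals. Their places are chr3:28805499-28805528 (plus strand) for Rpl22l1, chr4:152325679-152325708 (plus) for Rpl22, chr2:180257399-180257428 (plus) for Rps21 and chr2:26910788-26910817 (plus) for Rpl7a, the members that fell and had a run. They are chr11:98026903-98026932 (plus) for Rpl19, chr11:114668568-114668597 (plus) for Rpl38 and chrX:134585672-134585701 (plus) for Rpl36a, the 3 genes with the lowest p among those with a fold change above 0. Rps6, whose protein is the target of the S6 kinases, is at chr4:86857349-86857378 (minus).
Rpl22l1: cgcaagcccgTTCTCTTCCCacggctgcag
Rpl22: ccgtctgaCTCCTCCCTTTCCCgacagccg
Rps21: ggaggcacgagctaCTTCCTTTCTgcgctc
Rpl7a: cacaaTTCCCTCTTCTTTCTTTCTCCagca
Rpl19: ggggcttgggCTCTCCCCTTCgcagataat
Rpl38: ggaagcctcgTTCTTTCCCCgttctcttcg
Rpl36a: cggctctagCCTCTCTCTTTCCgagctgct
Rps6: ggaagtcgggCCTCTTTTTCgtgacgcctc
The fallen members shown were picked for having a run, and the other 4 that fell had no matched window. These sequences therefore do not compare the 2 ends of the range. Counted from the annotated start, the runs begin at 2 for Rpl22l1, -39 for Rpl22, 35 for Rps21 and -14 for Rpl7a. They begin at -11 for Rpl19, -2 for Rpl38, 28 for Rpl36a and -1 for Rps6. From another annotated start of Rps21, its run begins at -36. A run is thus not shown to be the tract at the start of the message.

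Shorter motifs were also counted in the same sequences. CTTTCC and CTCTTT, which can lie inside a pyrimidine run, were each found on the gene strand of 19 of the 62 windows (30.6%), against 5.03% and 4.15% of the other protein-coding genes. CCGGAAG, the core bound by ETS-family factors such as GABPA, was found on either strand of the 300-base promoter in 26 members (41.9%), against 12.8%. ATGGCGG, the core of the YY1 motif, was found in 11 (17.7%), against 6.01%. A match is a string of letters, not a measured binding site. Of the tested members, 43 had a pyrimidine run, with 4 lower (where 18.9% of all genes were lower) and a median log2 fold change of -0.02. A window without a run was matched for 17, with 0 lower and a median of -0.07. The other 19 had no matched window and held the other 4 that were lower, with a median of -0.08.

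Relative to the bulk of genes, the ribosomal protein genes stayed close together in mKO muscle. The edgeR quasi-likelihood test (Benjamini-Hochberg adjusted p below 0.05) called 8 of 79 members lower and 0 higher. An unadjusted p below 0.05 was found for 17 members and for 7641 of the 16650 genes tested. DESeq2 called 1 higher. Over all 16650 genes tested, 37.0% were called, 18.2% higher and 18.9% lower. The members' median log2 fold change was -0.07, with an interquartile range of -0.21 to 0.04, against a median of 0.02 and a range of -0.36 to 0.43 for all genes. Within 0.25 of no difference on the log2 scale lay 75.9% of the members and 34.0% of all genes. The groups did not overlap for 15 members, where 49.3% of all genes had no overlap.

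With library totals in place of TMM, 52 members were higher, 2 were lower and the median was 0.40. The background moved with it: 55.7% of all genes were called, 49.0% higher and 6.75% lower, with a median of 0.49. In both scalings the family's median was therefore slightly below that of all genes, and its direction depended on the scaling.

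**Figure D1:**
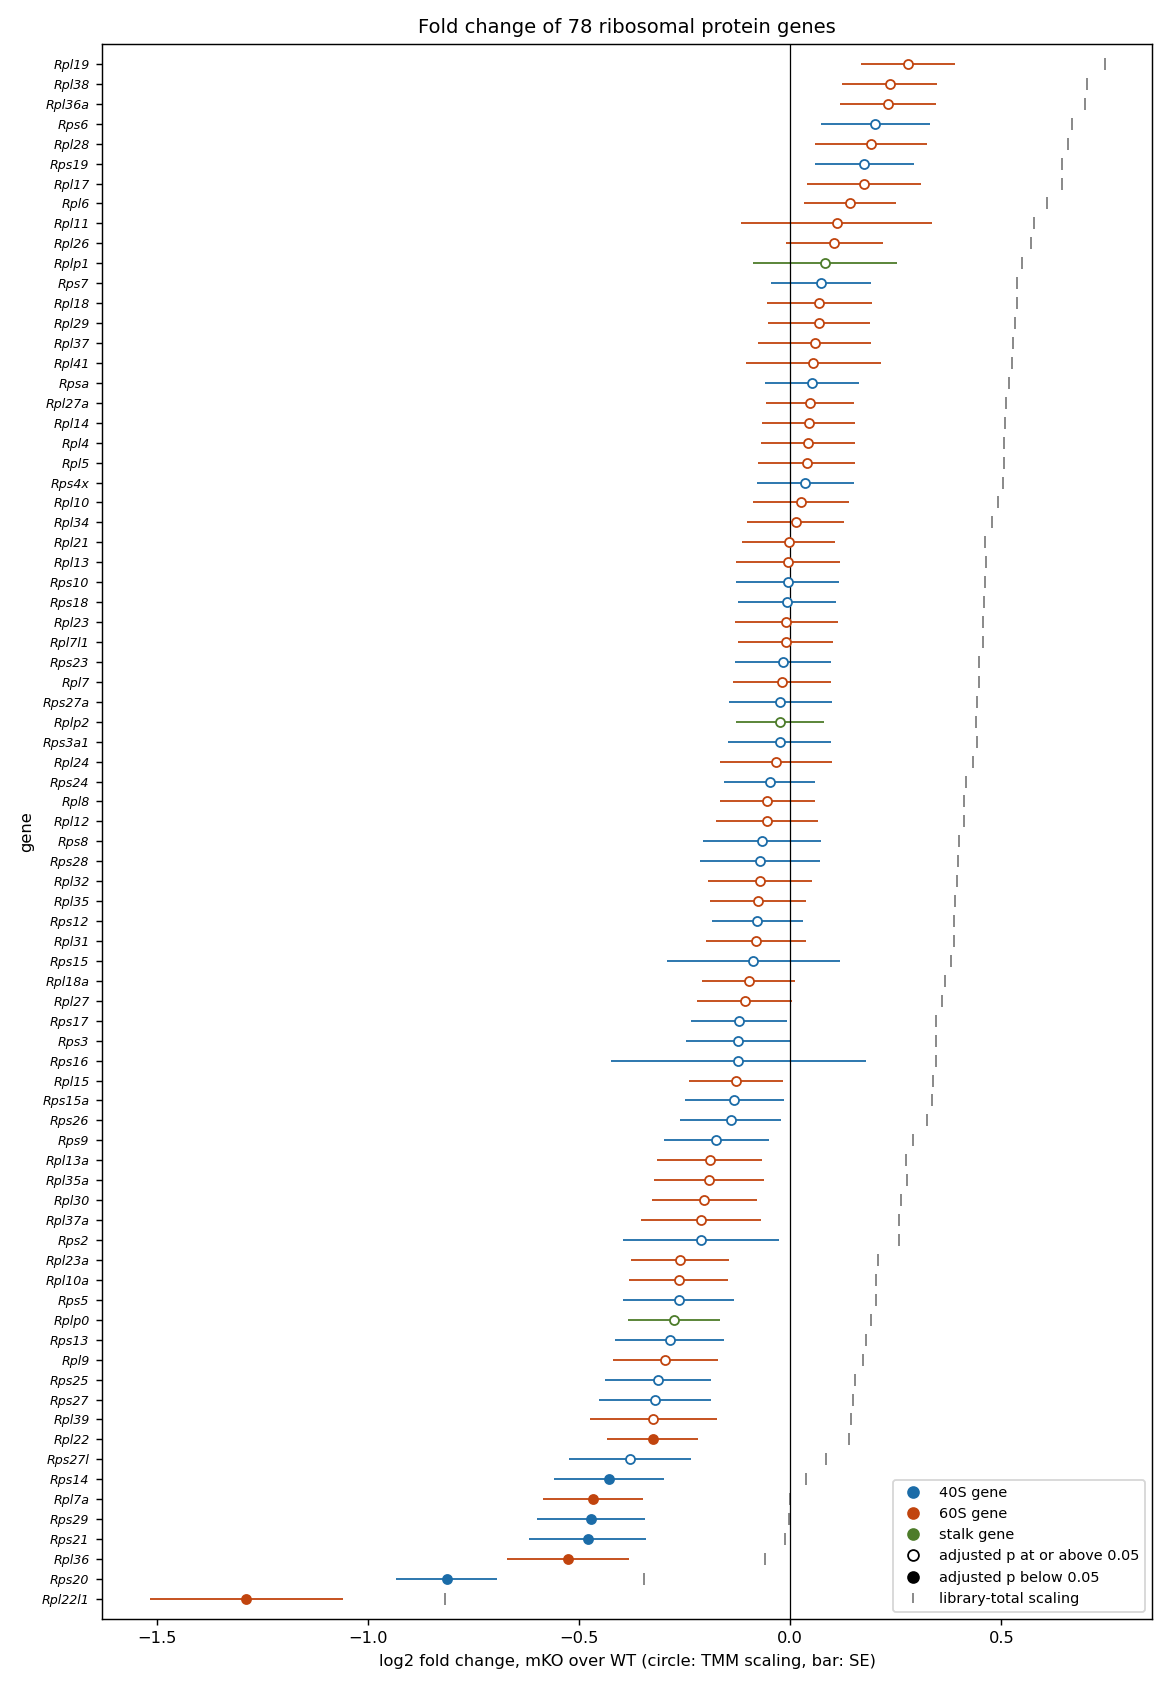
Log2 fold change of mKO over WT for 78 of the 79 tested members, 1 row per gene, coloured by subunit, with TMM scaling (circles, bars are SE, filled where adjusted p is below 0.05) and library totals (grey ticks). The 8 filled circles are all below 0, while the library-total ticks lie mostly above 0.

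Summed over the family, the outcome turned on the denominator. The members took 1.58%, 1.55% and 1.59% of all counts in WT replicates 1 to 3, and 2.34%, 1.87% and 1.97% in mKO. Every mKO library had a larger share than every WT library, with means of 1.57% ± 0.0187 and 2.06% ± 0.248 (SD, n = 3 each), a ratio of 1.31. As a share of protein-coding counts outside the mitochondrially encoded and 10 most abundant genes, the ratio was 1.23. In TMM-scaled CPM the sums were 18377, 18265 and 18796 in WT and 19494, 15961 and 17074 in mKO. These overlapped, with means of 18479 ± 280 and 17510 ± 1806 (SD, n = 3 each) and a ratio of 0.948. The sums carry no test, since the members were chosen with earlier results known.

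The mKO libraries differed among themselves in the whole family. Replicate 1 was the highest of its group for 76 of 80 detected members, and replicate 2 was the lowest for 69. Replicate 1 also had the highest sum of macrophage markers, 954 CPM, against 582 and 708 in the other mKO libraries. It was highest as well for markers of dividing cells (42.8 against 34.5 and 36.2) and of satellite cells and myoblasts (64.6 against 49.8 and 47.0). For muscle fibre markers it was lowest (161861 against 195275 and 187134). Fibroblast markers were highest in replicate 3 instead (2423 against 2311 and 2143). The part of these cell types in the family's values was not tested. Without mKO replicate 1, 15 members were lower. Without replicate 2 the count was 4, and without replicate 3 it was 3. Calls over all genes also varied across the fits that each left out a library, from 4766 to 6255.

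Summed, the 40S genes made up slightly less of the family in mKO, and the 60S genes slightly more. The 40S genes took 40.04%, 40.8% and 40.8% of the family's counts in WT and 39.4%, 38.9% and 38.8% in mKO. The 60S genes took 52.9%, 53.2% and 53.1% in WT and 54.1%, 54.9% and 55.3% in mKO. Neither share overlapped between the groups, and each is independent of the scaling of libraries because it is taken within the family. The P stalk took 7.09%, 6.03% and 6.05% in WT and 6.48%, 6.20% and 5.95% in mKO, which overlapped. By gene, 4 of 32 tested 40S members were lower, with a median log2 fold change of -0.10 and 27 below 0. Of 44 tested 60S members 4 were lower, with a median of -0.02 and 26 below 0. Over all genes 18.9% were lower, and 8041 of 16650 were below 0. The difference between the subunits was small and was not tested. Of the called 40S members, Rps20 took 1.45%, 1.62% and 1.56% of the family's counts in WT and 0.952%, 0.961% and 0.862% in mKO. Rps14 took 2.07%, 1.65% and 1.84% in WT and 1.51%, 1.48% and 1.37% in mKO. As such shares, 8 40S members were lower without overlap and 3 higher, where 45.7% of all genes did not overlap in either direction. The fall was thus not shared by all 40S members.

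**Figure D2:**
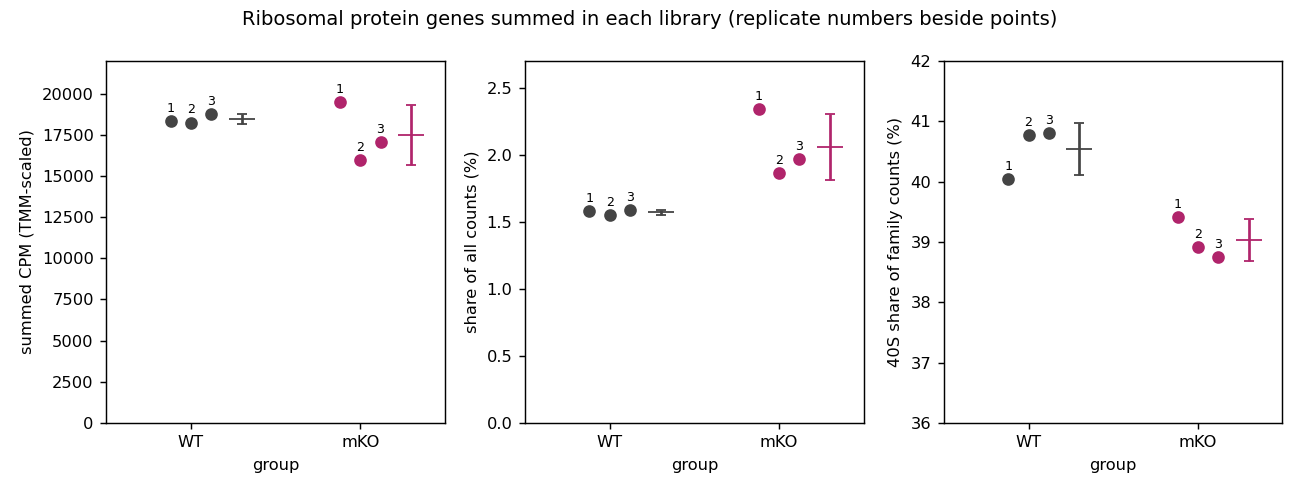
Ribosomal protein genes summed in each library: TMM-scaled CPM, share of all counts in percent, and the 40S share of the family's counts in percent, whose axis does not start at 0. Points are libraries with their replicate number and bars are the mean and SD. The summed CPM overlap between groups, while the share of counts (up to 1.59% in WT, from 1.87% in mKO) and the 40S share (from 40.04% in WT, up to 39.4% in mKO) do not.

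Rps20, a protein of the 40S head, lies at chr4:3831334-3835665 (minus strand, GRCm38). It was at 266, 296 and 292 CPM in WT and 186, 153 and 147 in mKO. All mKO libraries were well below all WT libraries. This gave a log2 fold change of -0.81 (SE 0.12, edgeR adjusted p = 0.000212), and with library totals it was still -0.35 (adjusted p = 0.0301). In the 1 transcript scored, which is 3706 bases long, 7.57% of the 50-base stretches occur in another gene. The share in shorter messages of the gene was not measured. Rps20 has a small nucleolar RNA inside the gene, as 29 members do. Those 29 had 2 lower and a median of -0.07, and the 50 without had 6 lower and a median of -0.06. Over all genes 18.9% were lower.

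Rpl22l1 (chr3:28805436-28807424, plus strand) encodes a paralog of Rpl22 that can take its place in the 60S subunit. It was at 18.1, 26.9 and 31.8 CPM in WT and 13.9, 7.45 and 10.1 in mKO. The groups did not overlap, though WT replicate 1 came close to mKO replicate 1. Its log2 fold change of -1.29 (SE 0.23, edgeR adjusted p = 0.000807) was the lowest of the family, and with library totals it was -0.82 (adjusted p = 0.00905). With library totals the groups overlapped, as WT replicate 1 at 15.5 CPM was below mKO replicate 1 at 16.7. Rps20 and Rpl22l1 were the only members lower under both scalings. Of the 50-base stretches of Rpl22l1, 65.6% occur in another gene, so its count may lack or borrow reads.

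Rpl22 (chr4:152325742-152334071, plus strand), an RNA-binding 60S protein, was at 162, 141 and 166 CPM in WT and 124, 123 and 127 in mKO. With TMM the mKO libraries were tightly grouped below WT. The log2 value of -0.33 (SE 0.11, edgeR adjusted p = 0.0319) passed the test, and the call was lost in 5 of 6 fits that each left out a library. With library totals its value was 0.14, above 0. The libraries were then at 139, 120 and 140 CPM in WT and 149, 143 and 147 in mKO. There every mKO library was above every WT library. Per length, Rpl22l1 stood at 16.3%, 28.0% and 28.0% of Rpl22 in WT and at 16.4%, 8.89% and 11.6% in mKO. These overlapped through WT replicate 1 and mKO replicate 1, with p = 0.2 in a two-sided exact permutation test, in which 3 against 3 cannot go below 0.1.

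Rpl7a (chr2:26910764-26913318, plus strand), a 60S protein whose gene hosts small nucleolar RNAs, was at 279, 283 and 263 CPM in WT and 226, 175 and 196 in mKO. No libraries overlapped. It fell by 0.47 on the log2 scale (SE 0.12, edgeR adjusted p = 0.00772) and, with Rps20 and Rpl22l1, was lower in all 6 fits that left out a library. With library totals its value was -0.0008 (edgeR adjusted p = 0.996), with overlapping groups. Of its 50-base stretches 81.2% occur elsewhere, and 11 pseudogenes carry its name.

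Rps29 (chr12:69157722-69159186, minus strand), a zinc-binding 40S protein mutated in some Diamond-Blackfan anaemia, was at 196, 249 and 225 CPM in WT and 184, 150.2 and 149.8 in mKO. The groups did not overlap, and mKO replicate 1 was nearest to WT. It fell by 0.47 on the log2 scale (SE 0.13, edgeR adjusted p = 0.0116). Rps21 (chr2:180257377-180258445, plus strand), another 40S protein, was at 200.3, 196 and 191 CPM in WT and 173, 118 and 130 in mKO. Its WT libraries were close together and it fell by 0.48 on the log2 scale (SE 0.14, edgeR adjusted p = 0.0164). Rps14 (chr18:60774510-60778546, plus strand), the 40S protein of the 5q deletion syndrome, was at 380, 302 and 346 CPM in WT and 294, 237 and 234 in mKO. Its groups did not overlap either. It fell by 0.43 (log2, SE 0.13, edgeR adjusted p = 0.0201), and its value was 0.04 with library totals.

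Rpl36 (chr17:56613395-56614243, plus strand), of the 60S subunit, was at 130, 162 and 120 CPM in WT and 113, 85.0 and 88.1 in mKO. The lowest WT library stood just above the highest mKO library. It fell by 0.53 on the log2 scale (SE 0.14, edgeR adjusted p = 0.0124). Of 6 fits without a library, Rps29 was lower in 5, Rpl36 and Rps21 in 4 and Rps14 in 2. Without mKO replicate 3, Rps20, Rpl22l1 and Rpl7a were the members lower, and without mKO replicate 2 Rps29 was added to them. Leaving out WT replicate 1 or WT replicate 3 ended the calls of Rps14 and Rpl22. With library totals Rpl7a, Rps21, Rps29, Rpl36, Rps14 and Rpl22 were not called. Their log2 values there were -0.0008, -0.012, -0.0032, -0.059, 0.04 and 0.14, in that order.

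**Figure D3:**
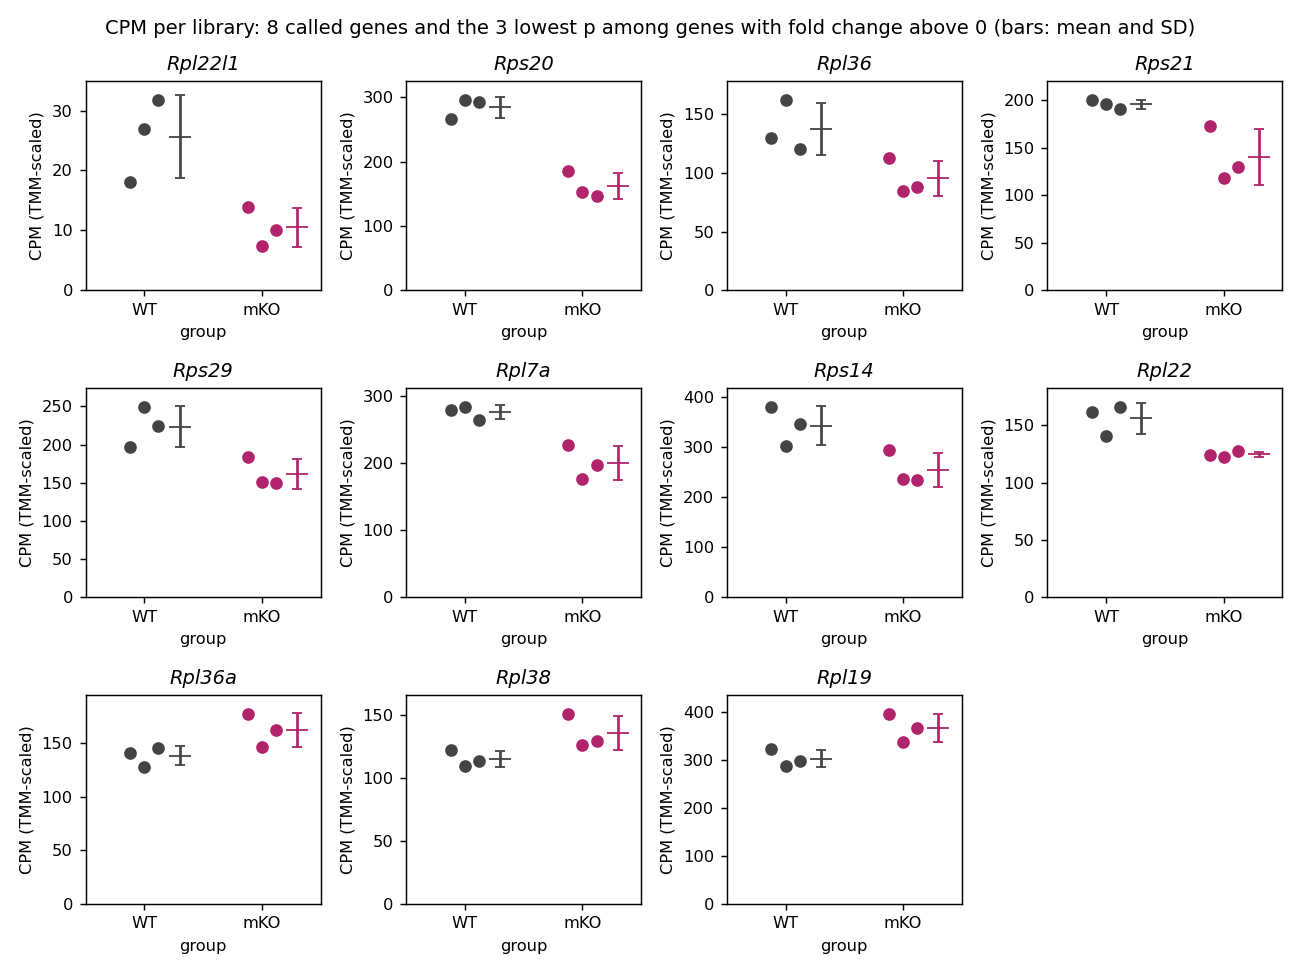
TMM-scaled CPM in each library for the 8 members called lower and the 3 with the lowest p among those with a fold change above 0. Points are libraries in replicate order and bars are the mean and SD. In each of the 11 panels the groups do not overlap, as for Rps20 with a lowest WT value of 266 and a highest mKO value of 186.

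At the other end, Rpl19, of the 60S subunit, was at 323, 288 and 298 CPM in WT and 398, 339 and 367 in mKO. The groups did not overlap, but the log2 fold change of 0.28 (SE 0.11) missed the threshold in edgeR (adjusted p = 0.0660). It passed in DESeq2 and, with an adjusted p of 0.0414, when the family's own total was used as library size in edgeR. Rpl38, whose loss causes the tail-short mouse and which is known for its part in Hox message translation, had a log2 fold change of 0.24 (edgeR adjusted p = 0.122). Rpl36a had 0.23 (edgeR adjusted p = 0.131). For both the groups did not overlap. Scaled to the family's total, a choice made after seeing the data, 7 members were called, where 32.8% of all genes were. As shares of the family's counts, 25 members did not overlap between groups, where 45.7% of all genes did not.

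The P stalk recruits the elongation factors to the ribosome. Rplp0, its base, was at 678, 642 and 651 CPM in WT and 596, 520 and 513 in mKO. The groups did not overlap, and the log2 fold change of -0.28 missed the threshold in edgeR (adjusted p = 0.0663). It passed in DESeq2 (adjusted p = 0.0389) and limma-voom (adjusted p = 0.0481). With library totals its direction turned, to 0.19 (edgeR adjusted p = 0.169), again with no overlap. Rplp1 and Rplp2, which bind Rplp0 as dimers, had 0.08 and -0.02, and their groups overlapped.

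A further 7 members, named for known roles outside ribosome structure or in disease, did not pass the test. Rps6 had a log2 fold change of 0.20, Rps19, the gene most often mutated in Diamond-Blackfan anaemia, had 0.18, and Rpsa, also known as the laminin receptor, had 0.05. Rpl5 and Rpl11 bind the 5S ribosomal RNA and restrain Mdm2. They had 0.04 and 0.11, and Rpl11 was spread in WT, at 108, 227 and 123 CPM. Rps27a, made as a fusion with ubiquitin, had -0.02, and Rpl13a had -0.19.

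The other paralogs are given beside their partners. Per length, Rps27l stood at 33.0% ± 5.70 of Rps27 in WT and 32.7% ± 7.43 in mKO (SD, n = 3, two-sided exact permutation p = 1.0). Their own log2 fold changes were -0.38 (edgeR adjusted p = 0.0551) and -0.32 (edgeR adjusted p = 0.0754), both with overlapping groups. Rpl7l1 stood at 9.68% ± 0.242 and 9.72% ± 0.123 of Rpl7 (exact permutation p = 0.8), and their log2 fold changes were -0.01 and -0.02. The exact permutation tests of the 4 pairs with a ratio, whose lowest Benjamini-Hochberg adjusted p was 0.8, could not pass 0.05 with 3 libraries in each group, so they say nothing of whether the ratios differ. Rpl39l was near the floor, with 1, 3 and 9 counts in WT and 4, 4 and 7 in mKO, where its partner Rpl39 had a log2 fold change of -0.32 (edgeR adjusted p = 0.111). Rpl10l, a testis copy of Rpl10, had 0 counts in all libraries, which allows up to 3 counts in each, or 0.0661 to 0.1001 CPM. Rpl10 and Rps4x had 0.03 and 0.04.

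Levels between genes were compared per length, as CPM per kilobase of listed exon (RPKM), averaged over the 6 libraries. The median tested member stood at 114 RPKM. The highest were Rplp1 at 898, Rps12 at 576 and Rps3a1 at 500, and the log2 fold changes of the last 2 were -0.08 and -0.03. The lowest were Rpl7l1 at 14.2, Rpl22l1 at 9.07 and Rps16 at 1.90. Rps16 had 61 to 138 counts per library. These levels depend on how reads of near-identical copies were treated, since a median of 52.1% of a member's 50-base stretches occur in another gene. The 43 members sharing more than 50% of theirs had 3 lower and a median log2 fold change of -0.02. The other 36 had 5 lower and a median of -0.08, where 18.9% of all genes were lower. Adding the counts of 272 pseudogenes named after 54 members, 0.486% to 0.601% of member counts, left 8 lower.

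The spread between replicates was moderate, with a median coefficient of variation of 8.55% in WT and 10.5% in mKO. In WT 8 members were above 20%. WT replicate 2 stood above the mean of the other WT libraries by 1.97 times for Rpl11, 1.91 for Rps16, 1.73 for Rps15 and 1.60 for Rps2. Rps15 and Rps2 were chosen after their values were seen. Without WT replicate 2, Rpl11 was called higher.

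Rpl3, of the 60S subunit, matches the naming rule and was left out of the set by choice. It was at 54.9, 49.2 and 51.8 CPM in WT and 89.1, 67.4 and 77.6 in mKO, with no overlap. It rose by 0.59 on the log2 scale (SE 0.12, edgeR adjusted p = 0.0023). Fau, Rpl36al and Rack1, ribosomal proteins whose symbols the rule does not match, had log2 fold changes of 0.09, -0.04 and -0.03, with overlapping groups.

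The mitochondrial ribosome, a separate set of 78 genes, is shown for comparison. Of these 31 were lower and 2 higher with a median of -0.26, where 18.9% of all genes were lower and 18.2% higher. Their summed CPM were 3593 to 3880 in WT and 2644 to 3119 in mKO, without overlap. The difference from the cytosolic set was not tested. With library totals 9 were lower and 24 higher, where 6.75% of all genes were lower and 49.0% higher.

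For the counts of the lists that follow, the shares of all genes are 18.2% higher and 18.9% lower with TMM, and 49.0% higher and 6.75% lower with library totals. In the ribosome assembly list, 17 of 39 tested genes rose and 2 fell, with a median of 0.31, against 0.02 over all genes. Mybbp1a, a nucleolar protein, rose by 0.83 on the log2 scale (SE 0.12, edgeR adjusted p = 0.000156), the rRNA methyltransferase Nop2 by 0.62 (SE 0.12, edgeR adjusted p = 0.00127) and the 40S export factor Rrp12 by 0.72 (SE 0.15, edgeR adjusted p = 0.0021). With library totals 33 of the 39 were higher, with a median of 0.77 against 0.49 over all genes. Chaperones that escort single ribosomal proteins gave 4 of 7 lower, 0 higher and a median of -0.45. With library totals 1 of these was lower and 3 were higher, with a median of 0.02. Heatr3, which escorts Rpl5, fell from 53.5, 54.3 and 56.3 CPM in WT to 24.6, 25.8 and 26.4 in mKO, a log2 fold change of -1.10 (SE 0.10, edgeR adjusted p = 6.09e-06). Pdcd2l, a relative of the Rps2 chaperone Pdcd2, fell by 0.73 (edgeR adjusted p = 0.00101). Pdcd2 fell by 0.45 (edgeR adjusted p = 0.0129), and with library totals its value was 0.02.

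RNA polymerase I and its factors were mixed, with 3 of 15 higher, 5 lower and a median of 0.05. With library totals 8 were higher and 0 lower, with a median of 0.51. Polr1b, the second largest subunit, fell by 0.65 (edgeR adjusted p = 0.00795), the subunit gene Znrd1 by 0.50 (edgeR adjusted p = 0.0159) and the initiation factor Rrn3 by 0.38 (edgeR adjusted p = 0.0207), though Rrn3 was at 0.09 with library totals. Other TOP messages had 4 of 16 higher, 2 lower and a median of -0.08, and with library totals 10 higher, 0 lower and a median of 0.39. Among them the translation elongation factor Eef1a1 rose by 0.76 (edgeR adjusted p = 0.00106), the nascent-chain factor Naca by 0.77 (edgeR adjusted p = 0.00132) and the poly(A)-binding protein Pabpc1 by 0.61 (edgeR adjusted p = 0.000514). Initiation factors had 6 of 28 higher and 6 lower with a median of 0.03, near the shares and median of all genes. With library totals 19 were higher and 0 lower, with a median of 0.50. Within the eIF3 complex, Eif3c rose by 0.69 (edgeR adjusted p = 0.000259) and Eif3g by 0.60 (edgeR adjusted p = 0.000687), while Eif3i fell by 0.64 (edgeR adjusted p = 0.00075).

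Ribosome rescue had 0 of 7 higher and 2 lower, with a median of -0.05. With library totals 5 were higher and 1 lower, with a median of 0.41. The E3 ligase Ltn1, which tags chains on stalled ribosomes, fell by 0.81 (edgeR adjusted p = 0.000131), and the Pelo partner Hbs1l fell by 0.38 (edgeR adjusted p = 0.025), at 0.09 with library totals. Pelo itself had 0.44 (edgeR adjusted p = 0.0803). Regulators of TOP message translation and ribosome production had 4 of 10 higher and 1 lower, with a median of 0.31. With library totals 8 were higher and 0 lower, with a median of 0.77. Eif4ebp1, a translation repressor inactivated by mTORC1, was at 20.9, 26.7 and 23.6 CPM in WT and 67.1, 61.3 and 64.4 in mKO, a log2 fold change of 1.44 (SE 0.12, edgeR adjusted p = 2.64e-06). Myc, which drives ribosome genes, rose from 1.40, 1.01 and 1.82 CPM to 6.43, 5.59 and 5.04, a log2 fold change of 2.01 (SE 0.24, edgeR adjusted p = 4.02e-05). Rps6kb1, an S6 kinase, fell by 0.58 (edgeR adjusted p = 0.00154). Over all 8 lists, 35 of 127 tested genes were higher and 23 lower, the second near the 18.9% of all genes.

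**Figure D4:**
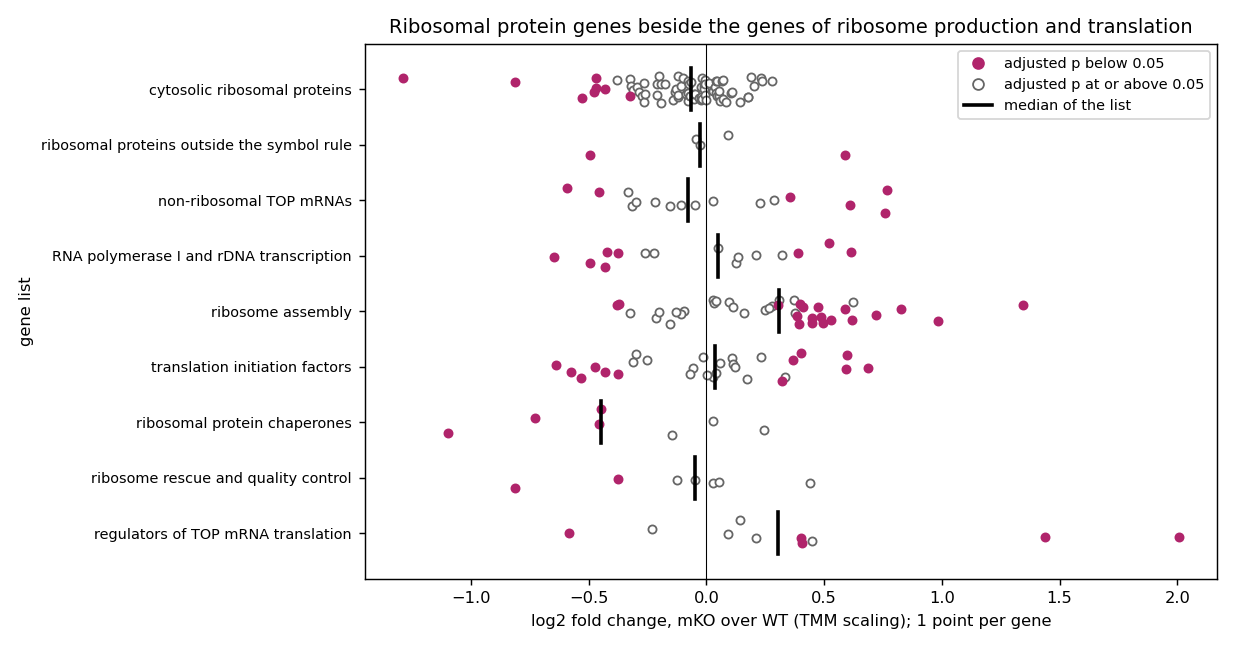
Log2 fold change of mKO over WT (TMM scaling) for each tested gene of the cytosolic ribosomal protein set and of the 8 lists on ribosome production and translation. Points are genes, filled where the edgeR adjusted p is below 0.05, and the black bar is the list's median. The ribosomal proteins cluster near 0 (median -0.07), while ribosome assembly lies to the right (0.31) and the chaperones to the left (-0.45).

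Markers of other cell types moved with the groups, and their part in these values was not tested. Macrophage markers were higher for 10 of 10 genes (275 to 328 summed CPM in WT, 582 to 954 in mKO), satellite cell and myoblast markers for 3 of 5 (20.9 to 24.1, 47.0 to 64.6), markers of dividing cells for 6 of 6 (4.72 to 6.00, 34.5 to 42.8) and fibroblast markers for 2 of 7 (1718 to 1873, 2143 to 2423). Endothelial markers were lower for 5 of 6 (239 to 310, 156 to 168), pericyte and smooth muscle markers for 2 of 4 (623 to 689, 308 to 339) and muscle fibre markers for 5 of 6. Neutrophil markers had 1 of 2 tested higher (0.827 to 1.84, 1.68 to 3.19) and red blood cell markers 1 of 2 lower (2.77 to 6.81, 0.830 to 1.67). Schwann cell and adipocyte markers had 0 of 3 each, and no lymphocyte marker passed the filter. These counts are with TMM. With library totals, markers were higher for 10 of 10 in macrophages, 4 of 5 in satellite cells and myoblasts, 6 of 6 in dividing cells and 6 of 7 in fibroblasts. Endothelial markers were then lower for 2 of 6 and muscle fibre markers for 4 of 6. Pericyte and smooth muscle markers had 1 higher and 1 lower of 4. No list had a marker at 0 in every library.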

How the data were processed

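Per the labels' protocols, Trizol was used for extraction and the NEBNext Ultra RNA kit for the libraries. The deposited values are raw counts per Ensembl gene, 1 table per library. Per the submitters' processing notes, the authors used featureCounts (Subread 1.5.2), STAR 2.5.2b and Trimmomatic 0.36, with GRCm38. The sources used here do not give the strand, pair and multimapping settings, so counts of overlapping genes and near-identical copies are uncertain. Symbols matched 48970 gene identifiers. Of list symbols, Riok2 was not matched, and Polr1f, Polr1g and Polr1h were matched through older names.

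The main test was edgeR 4.0.16 in R 4.3.3 (quasi-likelihood, TMM, default expression filter, group only), adjusted over 16650 genes and tested on simulated data. The biological coefficient of variation was 16.1%. Groups came from the sample titles. Alternatives were DESeq2 1.42.0, limma 3.58.1 (voom), other scalings, no filter, a replicate block, leaving out each library, leaving out the mitochondrially encoded and 10 most abundant genes, and adding pseudogene counts. Scaling by the family's total was added after seeing the data. Members and lists were chosen with earlier results of these data known. Named members were the label check, the 5 largest called changes and 3 lowest p in each direction, the 3 highest and 3 lowest levels, stalk genes, paralog pairs and 8 genes with known roles, and in each list up to 3 genes of lowest p. Rps14 and Rpl22, outside that rule, are named to complete the 8 calls, as are other genes marked so. Of the genes these rules take or the figures would show, 2 are not reported here. Intervals and floors cover counting error only.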

Additional observations from a re-analysis of the deposited data

How the results depend on the processing

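With library totals, 52 ribosomal protein genes were higher and 2 lower with a median of 0.40 on the log2 scale, 90 genes of the pathway lists were higher and 2 lower with a median of 0.56, and the summed family was 1.31 times WT, or 1.23 as a share of other protein-coding counts. Library totals raised log2 values by a median of 0.46 over all genes. Of the 79 tested members, 55 were below 0 with TMM and 6 with library totals. Among the named genes, the log2 values that crossed from below to above 0 were 0.090 for Hbs1l, 0.27 for Hnrnpu, 0.016 for Pdcd2, 0.44 for Rack1, 0.27 for Rpl13a, 0.14 for Rpl22, 0.42 for Rpl36al, 0.14 for Rpl39, 0.45 for Rpl7, 0.46 for Rpl7l1, 0.19 for Rplp0, 0.44 for Rplp2, 0.39 for Rps12, 0.038 for Rps14, 0.35 for Rps16, 0.15 for Rps27, 0.44 for Rps27a, 0.084 for Rps27l, 0.44 for Rps3a1 and 0.090 for Rrn3. With the family's total as library size 1 member was higher, and 11 list genes were lower. Named genes that crossed to above 0 there, with no call, were at 0.048 for Rack1, 0.032 for Rpl36al, 0.061 for Rpl7, 0.068 for Rpl7l1, 0.059 for Rplp2, 0.0040 for Rps12, 0.057 for Rps27a and 0.055 for Rps3a1. DESeq2 called 1 member higher and 11 lower.

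Leaving out 1 library gave 0 to 1 members higher, 3 to 15 lower (15 without mKO replicate 1, 4 without mKO replicate 2, 3 without mKO replicate 3), 23 to 34 list genes higher (23 without mKO replicate 3) and 13 to 26 lower (13 without mKO replicate 2 and 13 without mKO replicate 3). Over all genes, 4766 to 6255 were called in these fits. Values near 0 changed sign among these fits, over log2 ranges of -0.13 to 0.052 for Rack1, -0.049 to 0.092 for Rpl10, -0.093 to 0.51 for Rpl11, -0.15 to 0.050 for Rpl36al, -0.023 to 0.11 for Rpl5, -0.097 to 0.031 for Rpl7, -0.086 to 0.049 for Rpl7l1, -0.12 to 0.26 for Rplp1, -0.059 to 0.017 for Rplp2, -0.38 to 0.25 for Rps16, -0.12 to 0.044 for Rps27a, -0.11 to 0.049 for Rps3a1, -0.029 to 0.11 for Rps4x and -0.0048 to 0.13 for Rpsa, of which Rpl11 alone was called in any, without WT replicate 2. The cause was not tested. After each gene's group mean was subtracted, same-numbered libraries correlated at 0.018, -0.002 and 0.022. All WT and mKO pairs lay between -0.058 and 0.035. With 3 libraries in each group, such values cannot tell whether the numbers pair the libraries. With the replicate block 7 members were lower and 0 higher, with Rpl22 lost, and 31 list genes were higher and 22 lower. Counts were low for Rps16, at 61 to 138 per library, and for Rpl39l, at 1 to 9, and the reason was not tested.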
